A study of Mus musculus with 18 samples.

Results

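The genes described here peaked transiently on the first day of cardiac reprogramming. They were chosen by their values in the control-siRNA (siControl) libraries alone, as genes with a mean of at least 5 CPM at day 1 (the count of a gene per 1000000 counts of its library), a day 1 mean at least 2 times the day 0 mean and at least 2 times the day 3 mean, and a lowest day 1 value above every day 0 and day 3 value. Symbols made of Gm and a number, or ending in Rik, were left out. Of 24514 genes in the deposited count table, 15 met the rule: Penk, Nr4a3, Tbxas1, Mlf1, Murc, Lpar4, Hbegf, Gemin8, Ch25h, Rnf24, Rbpms2, Ppm1e, Tbc1d23, Susd5 and F2r. Day 1 means of at least 5 CPM were found for 10009 genes, and 518 of those had at least 2 times their day 0 mean. The fall by day 3 left 15 genes, and neither the condition on overlap nor that on symbols removed any of them. With CPM from totals scaled by TMM, 29 genes met the rule, all 15 among them.

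The cells were the iMGT-Myh6-eGFP-MEF line, mouse embryonic fibroblasts that carry inducible copies of the cardiac transcription factors Mef2c, Gata4 and Tbx5 (together MGT) and a green fluorescent reporter of the cardiac myosin gene Myh6. They were transfected with an siRNA against Chst7, a Golgi carbohydrate sulfotransferase gene, or with siControl, and doxycycline was added on the next day, named day 0. The 6 groups were siChst7 and siControl at day 0 (no doxycycline received), day 1 and day 3 of factor induction, each with 3 libraries of messenger RNA that the titles call biological replicates, 18 libraries in all. Each library came from the pooled cells of many wells, and all groups shared the line, the medium and a transfection. No cells kept without doxycycline to day 1 or day 3 are among the samples, so that the factors, doxycycline, time in culture and time since transfection cannot be told apart in any change between days.

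Transient messenger RNAs are known from cells that meet a new signal: transcription factors that are already present, such as CREB at the cyclic AMP response element (CRE) or Fos and Jun dimers at AP-1 sites, switch genes on within hours, and AU-rich words in the 3′ untranslated region (3′ UTR) mark many of these transcripts for fast decay. Nr4a3 and Hbegf are textbook members of this immediate early class. In cardiac reprogramming, Mef2c, Gata4 and Tbx5 bind cardiac enhancers in fibroblasts and start muscle genes while fibroblast genes are shut down over the following days. By known function the 15 genes encode secreted signals (Hbegf, Penk), enzymes of lipid messengers (Tbxas1, Ch25h), G protein-coupled receptors (F2r, Lpar4), proteins of the nucleus and of RNA (Nr4a3, Gemin8, Rbpms2, Mlf1), a muscle caveolar coat protein (Murc) and proteins of signalling, traffic and the cell surface (Ppm1e, Tbc1d23, Rnf24, Susd5).

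Promoters of 4 of the genes are printed as examples with matches to the motif words searched. Windows of other genes also held matches, as given further on, whereas those of Rnf24, Rbpms2 and Ppm1e held none. Each line is 250 bases before a transcription start listed for the gene, 5′ to 3′ on its strand, from RefSeq on GRCm38.p6. Motif matches are in capitals, and distances are counted from that listed start. For Nr4a3 the listed start lies inside the annotated gene, which begins at 48045078, so most of its window is within the gene. Nr4a3 is shown at chr4:48045055-48045304 on the plus strand, Murc (Cavin4 in RefSeq) at chr4:48663264-48663513 on the plus strand, Mlf1 at chr3:67373847-67374096 on the plus strand and Ch25h at chr19:34475149-34475398 on the minus strand.
Nr4a3: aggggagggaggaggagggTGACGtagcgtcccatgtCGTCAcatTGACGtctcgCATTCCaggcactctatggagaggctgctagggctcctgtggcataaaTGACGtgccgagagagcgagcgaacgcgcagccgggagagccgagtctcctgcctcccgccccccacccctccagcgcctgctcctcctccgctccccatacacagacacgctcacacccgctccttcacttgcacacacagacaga
Murc: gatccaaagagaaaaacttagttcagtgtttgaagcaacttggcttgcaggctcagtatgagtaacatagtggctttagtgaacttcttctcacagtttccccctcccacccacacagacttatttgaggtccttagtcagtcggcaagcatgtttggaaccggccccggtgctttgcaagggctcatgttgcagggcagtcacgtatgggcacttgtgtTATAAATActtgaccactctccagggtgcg
Mlf1: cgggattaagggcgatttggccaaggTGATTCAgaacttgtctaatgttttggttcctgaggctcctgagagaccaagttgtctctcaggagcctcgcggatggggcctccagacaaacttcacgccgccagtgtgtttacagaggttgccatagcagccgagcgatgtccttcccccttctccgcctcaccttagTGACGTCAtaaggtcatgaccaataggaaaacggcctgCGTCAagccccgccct
Ch25h: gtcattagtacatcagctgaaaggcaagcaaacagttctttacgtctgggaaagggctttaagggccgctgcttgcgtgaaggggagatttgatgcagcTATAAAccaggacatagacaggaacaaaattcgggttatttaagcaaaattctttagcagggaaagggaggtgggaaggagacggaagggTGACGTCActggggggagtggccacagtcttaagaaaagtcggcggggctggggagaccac
In Nr4a3 the capitals mark the CRE core TGACG, on either strand, starting 231, 213, 205 and 147 bases before the start, and the TEAD word GGAATG, on the opposite strand, at 195 bases. The Murc window had 1 run in capitals, 30 bases before the start, where the TATA box word TATAAA and the MEF2 word TATTTNTA (N is any base, here on the opposite strand) overlap. Mlf1 held the full CRE TGACGTCA at 54 bases, another TGACG on the opposite strand at 16 bases and the AP-1 word TGANTCA at 224 bases. Ch25h held the full CRE at 61 bases and TATAAA at 151 bases.

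Promoter windows were listed for 13 of the 15 genes and for 10869 of 13802 tested genes, and 9 motifs were searched on both strands. The first window listed for a gene was used, which need not stand before the start of the gene as annotated. The Tbxas1 window (chr6:38918736-38918985) and the Rbpms2 window lay wholly inside their genes. Those of Nr4a3 and Tbc1d23 lay partly inside. TGACGTCA stood in 2 of the 13 windows (15.4%), Mlf1 and Ch25h, against 2.72% of all tested windows. Its core TGACG, which every full CRE also contains, stood in 6 windows (46.2% against 26.7%). TGANTCA stood in 4 windows, those of Tbxas1, Mlf1, Susd5 and F2r (30.8% against 4.67%), and TATAAA in 4 windows, those of Tbxas1, Murc, Lpar4 and Ch25h (30.8% against 6.82%). Among words of the delivered factors, TATTTNTA stood in the Murc window alone (7.69% against 2.81%), the T-box word AGGTGT in that of Tbxas1 alone (7.69% against 9.72%), and the GATA word AGATAA, found in 5.61% of tested windows, in none of the 13. GGAATG stood in the Nr4a3 window alone (7.69% against 10.8%), and the CArG box, found in 1.24% of tested windows, in none. These matches describe letters in short windows and carry no test. The 13 windows had a median G and C content of 59.2%, against 59.6% in all tested windows.

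The Chst7 message, the siRNA target, ranged from 0.24 to 3.00 CPM over the 9 siChst7 libraries, against 18.0 to 39.0 CPM over the 9 siControl libraries. Total counts per library were 30590742 to 50021142. Counts of Mef2c, Gata4 and Tbx5, which do not separate delivered from native copies, were highest at day 1 in both series: Mef2c averaged 47.3, 549 and 257 CPM at days 0, 1 and 3 in siChst7 cells and 45.5, 505 and 345 CPM in siControl cells. Summed fibroblast markers were 10600 to 11500, 13000 to 13300 and 12800 to 13500 CPM at days 0, 1 and 3 in siChst7 cells. In siControl cells they were 10700 to 11000, 14700 to 15100 and 15300 to 16000 CPM. Thy1 and Lum were under 1 CPM throughout. Summed cardiomyocyte markers were 24.6 to 25.2, 119 to 148 and 1120 to 1330 CPM at days 0, 1 and 3 in siChst7 cells and 11.4 to 13.9, 111 to 116 and 924 to 990 CPM in siControl cells, with Actn2, Ryr2, Pln, Myl2 and Nkx2-5 under 1 CPM in every library. Summed smooth muscle markers were 630 to 685, 1710 to 1790 and 3790 to 4370 CPM at days 0, 1 and 3 in siChst7 cells and 1530 to 1660, 2220 to 2290 and 3450 to 3540 CPM in siControl cells. Summed macrophage and leukocyte markers were 62.3 to 66.5, 23.3 to 24.8 and 28.3 to 30.9 CPM in siChst7 cells and 47.4 to 52.1, 18.2 to 20.6 and 30.1 to 32.1 CPM in siControl cells. Adipocyte markers were 44.6 to 48.8, 13.7 to 14.6 and 21.0 to 22.9 CPM in siChst7 cells and 35.2 to 37.9, 13.1 to 16.9 and 21.6 to 22.6 CPM in siControl cells. Endothelial markers were 19.0 to 22.2, 4.81 to 6.43 and 1.54 to 2.18 CPM in siChst7 cells and 12.4 to 14.4, 2.26 to 3.59 and 1.39 to 1.96 CPM in siControl cells, and neural crest and glial markers summed to at most 1.42 CPM in any library. Of the 8 endothelial markers, 6 (Pecam1, Kdr, Tie1, Tek, Esam and Emcn) were under 1 CPM in every library. So were 4 of the 8 macrophage and leukocyte markers (Ptprc, Adgre1, Itgam and Fcer1g) and 3 of the 6 adipocyte markers (Adipoq, Plin1 and Cfd). Epithelial markers, of which Krt8 alone passed 1 CPM, summed to 0.25 to 0.35, 1.83 to 2.61 and 0.483 to 1.09 CPM at days 0, 1 and 3 in siChst7 cells and to 0.214 to 0.342, 0.663 to 0.877 and 0.362 to 0.729 CPM in siControl cells. The part of these markers in the results below was not tested. In siChst7 cells, replicate 1 of day 3 (1.96% of counts from the ribosomal transcript Rn45s, against 0.131% to 0.654% in the others) and replicate 3 of day 0 stood apart from their groups. Without them the counts of the 15 genes that passed each test between days were the same. Replicate 3 of day 0 was near its group in Rn45s (0.189%, against 0.159% and 0.228%) and in TMM factor (1.005, against 1.004 and 1.008). Replicate 2 of siChst7 day 3 had a TMM factor of 1.073, against 1.014 and 1.015 in its group. Without replicate 2 of day 3, 8994 of 14017 tested genes were called day 1 against day 0, against 8285 of 13802 with all libraries.

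The siChst7 libraries were not used to choose the genes, and there all 15 rose at day 1 and fell by day 3. Day 1 against day 0, 15 of 15 were higher (edgeR quasi-likelihood F-test, Benjamini-Hochberg adjusted p below 0.05 over 13802 genes, highest adjusted p 3.28e-08), where 29.5% of all tested genes were higher and 30.5% lower. The median log2 fold change of the 15 was 2.28, with a range of 0.88 to 8.07, against −0.01 for all tested genes. Day 3 against day 1, 15 of 15 were lower (highest adjusted p 0.00751), where 33.5% of all tested genes were lower and 31.7% higher. The median log2 fold change was −1.39, with a range of −5.63 to −0.58, against 0.01 for all tested genes. The day 1 libraries are shared by both comparisons. In each of the 15, every siChst7 day 1 value lay above every day 0 value, which held for 27.7% of tested genes, and above every day 3 value, which held for 24.3%. In bulk RNA, fewer cells of a type and less RNA per cell cannot be told apart. Where libraries were scaled by their totals alone, 60.9% of the genes called day 3 against day 1 were higher, against 48.6% with the TMM scaling used here, and the median of all tested genes shifted to 0.12. The 15 were lower under both scalings.

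**Figure D1:**
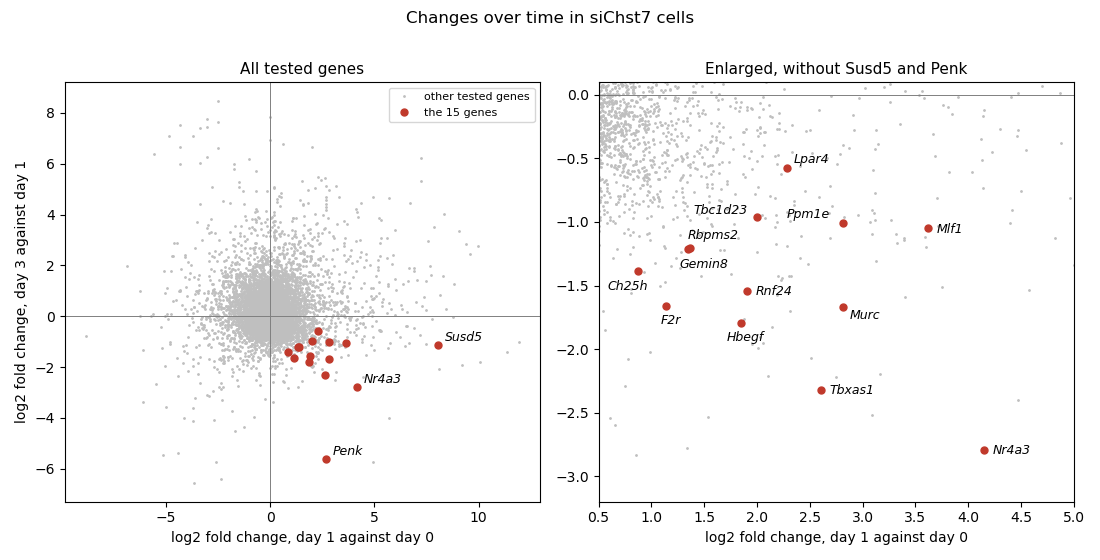
Log2 fold changes in siChst7 cells, day 1 against day 0 on the horizontal axis and day 3 against day 1 on the vertical axis, for 13802 tested genes (grey) and the 15 genes (red), with an enlarged panel on the right. All 15 lie to the right of 0 and below 0, from 0.88 (Ch25h) to 8.07 (Susd5) across and down to −5.63 (Penk).

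By day 3 the 15 genes had come down to different places in siChst7 cells. Day 3 against day 0, 9 of 15 were still higher (37.9% of all tested genes were higher), 3 were lower (37.8% of tested genes were) and 3 did not pass the test, with a median log2 fold change of 0.36 against 0.01 for all tested genes. As a share of the day 1 excess over day 0, what was left at day 3 ran from −36.4% in Ch25h, −25.4% in F2r and −16.9% in Penk, which ended below their day 0 level, through 2.6% in Hbegf, 5.7% in Tbxas1 and 9.0% in Gemin8, to 45.2% in Ppm1e, 47.4% in Mlf1, 49.1% in Susd5 and 64.0% in Lpar4. In siControl cells, whose values chose the genes, the share ran from −36.1% in Ch25h to 48.9% in Susd5, and 26.2% was left in Lpar4.

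**Figure D2:**
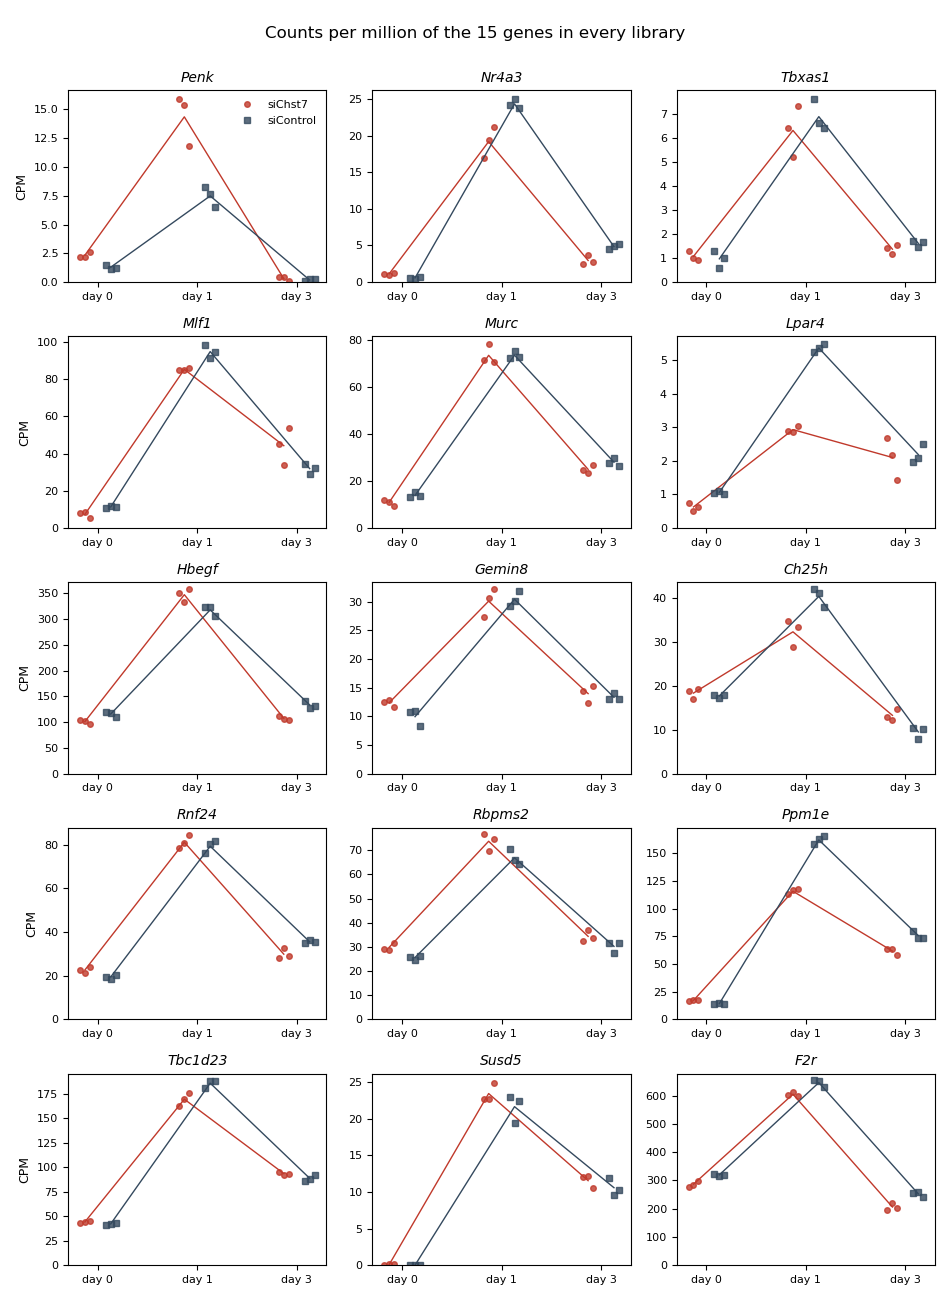
CPM of the 15 genes at days 0, 1 and 3 in each of 3 siChst7 libraries (red circles) and 3 siControl libraries (blue squares) per day, with lines through the means; each panel has its own axis, which starts at 0. Day 1 is the highest day in every panel for both siRNAs, and Penk, Lpar4 and Ppm1e show the widest gaps between the siRNAs at day 1.

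Hbegf (chr18:36504927-36515805) encodes heparin-binding EGF-like growth factor, a membrane-anchored ligand that is shed to activate the EGF receptor. It had 104, 102 and 96.3 CPM at day 0, 351, 332 and 359 CPM at day 1 and 112, 106 and 104 CPM at day 3 in siChst7 cells. In siControl cells it had 119.7, 118 and 110.0 CPM at day 0, 323, 324 and 306 CPM at day 1 and 141, 127 and 132 CPM at day 3. All day 1 libraries stood above all libraries of the other days in both series. In siChst7 cells the log2 fold change was 1.84 ± 0.05 (adjusted p = 2e-18) day 1 against day 0, and −1.80 ± 0.05 (adjusted p = 2.27e-17) day 3 against day 1. Day 3 did not pass the test against day 0 (0.05 ± 0.05, adjusted p = 0.391), with a 95% interval of −0.06 to 0.16.

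Penk (chr4:4133536-4138815) encodes the precursor of the enkephalin opioid peptides. Its values in siChst7 cells were 2.20, 2.20 and 2.59 CPM at day 0, 15.9, 15.3 and 11.8 CPM at day 1 and 0.412, 0.410 and 0.0654 CPM at day 3. In siControl cells they were 1.48, 1.18 and 1.22 CPM at day 0, 8.27, 7.68 and 6.51 CPM at day 1 and 0.0604, 0.228 and 0.245 CPM at day 3. Penk thus ended far under its starting level, with 33 counts in the 3 day 3 libraries of siChst7 cells against 318 in those of day 0, and the groups of the days did not overlap. Its log2 fold change in siChst7 cells was 2.69 ± 0.18 (adjusted p = 9.84e-12) day 1 against day 0, −5.63 ± 0.25 (adjusted p = 3.25e-14) day 3 against day 1 and −2.94 ± 0.30 (adjusted p = 9.99e-09) day 3 against day 0. At day 1 every siChst7 library was above every siControl library.

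Tbxas1 (chr6:38864159-39084590), thromboxane A synthase, turns prostaglandin H2 into the vasoconstrictor thromboxane A2. It was a low gene, with 1.30, 1.00 and 0.911 CPM at day 0, 6.39, 5.22 and 7.32 CPM at day 1 and 1.41, 1.16 and 1.54 CPM at day 3 in siChst7 cells. The siControl libraries had 1.30, 0.599 and 1.01 CPM at day 0, 7.63, 6.63 and 6.40 CPM at day 1 and 1.69, 1.48 and 1.66 CPM at day 3. In siChst7 cells days 0 and 3 overlapped, well under day 1. Log2 fold changes in siChst7 cells were 2.61 ± 0.20 (adjusted p = 1.37e-10) day 1 against day 0 and −2.32 ± 0.20 (adjusted p = 1.5e-09) day 3 against day 1. Day 3 did not pass the test against day 0 (0.29 ± 0.24, adjusted p = 0.277, 95% interval −0.21 to 0.79).

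Ch25h (chr19:34473783-34475148), a gene of 1 exon, encodes the enzyme that makes 25-hydroxycholesterol, an oxysterol that restrains cholesterol synthesis and has antiviral activity. It had 18.9, 16.9 and 19.2 CPM at day 0, 34.8, 28.8 and 33.3 CPM at day 1 and 12.9, 12.2 and 14.8 CPM at day 3 in siChst7 cells. In siControl cells the values were 17.9, 17.3 and 17.9 CPM at day 0, 42.0, 41.3 and 37.9 CPM at day 1 and 10.3, 7.90 and 10.3 CPM at day 3. All siChst7 day 1 libraries lay under all siControl day 1 libraries, and day 3 lay the other way round. In siChst7 cells the rise was the smallest of the 15, a log2 fold change of 0.88 ± 0.09 (adjusted p = 3.28e-08), and the fall by day 3 was −1.39 ± 0.10 (adjusted p = 5.39e-11). It left Ch25h lower at day 3 than at day 0 (−0.51 ± 0.10, adjusted p = 8.33e-05).

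F2r (chr13:95601780-95618466) encodes the thrombin receptor PAR1, a G protein-coupled receptor that proteases activate by cutting its extracellular end. Its siChst7 values were 277, 283 and 299.8 CPM at day 0, 601, 614 and 600.5 CPM at day 1 and 197, 219 and 202 CPM at day 3. Its siControl values were 323, 316 and 321 CPM at day 0, 655, 652 and 631 CPM at day 1 and 256, 259.6 and 243 CPM at day 3. F2r only just met the rule, and at every day the siChst7 libraries lay under the siControl ones. The siChst7 log2 fold changes of F2r were 1.14 ± 0.04 (adjusted p = 8.67e-17) day 1 against day 0, −1.66 ± 0.04 (adjusted p = 1.42e-18) day 3 against day 1 and −0.52 ± 0.04 (adjusted p = 7.44e-11) day 3 against day 0. Per kilobase of the deposited gene length, F2r had the highest day 1 level of the 15, with 184 CPM per kilobase in siChst7 cells and 196 in siControl cells.

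Lpar4 (chrX:106920625-106933899) encodes a receptor for lysophosphatidic acid, a lipid messenger of serum, and had the lowest day 1 level per kilobase, with 0.691 CPM per kilobase in siChst7 cells and 1.27 in siControl cells. It had 0.740, 0.50 and 0.630 CPM at day 0, 2.88, 2.86 and 3.04 CPM at day 1 and 2.68, 2.17 and 1.44 CPM at day 3 in siChst7 cells. In siControl cells it had 1.05, 1.11 and 1.01 CPM at day 0, 5.25, 5.36 and 5.46 CPM at day 1 and 1.96, 2.10 and 2.50 CPM at day 3. Its siChst7 day 3 libraries were spread widely below those of day 1. In siChst7 cells Lpar4 rose by a log2 fold change of 2.28 ± 0.21 (adjusted p = 2.1e-09) day 1 against day 0. The change day 3 against day 1 was −0.58 ± 0.18 (adjusted p = 0.00751), and without replicate 3 of siChst7 day 3 it was −0.38 and did not pass the test (adjusted p = 0.0754). Day 3 remained above day 0 (1.70 ± 0.22, adjusted p = 2.69e-07).

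Nr4a3 (chr4:48045078-48086447) encodes an orphan nuclear receptor of the immediate early class. Its siChst7 libraries had 1.14, 0.977 and 1.26 CPM at day 0, 16.9, 19.4 and 21.2 CPM at day 1 and 2.47, 3.67 and 2.71 CPM at day 3. Its siControl libraries had 0.537, 0.471 and 0.707 CPM at day 0, 24.2, 24.9 and 23.8 CPM at day 1 and 4.50, 4.87 and 5.14 CPM at day 3. Day 1 stood far above both other days, and the siChst7 libraries lay above the siControl ones at day 0 and under them at days 1 and 3. The log2 fold change of Nr4a3 in siChst7 cells was 4.15 ± 0.13 (adjusted p = 2.47e-17) day 1 against day 0, −2.79 ± 0.12 (adjusted p = 1.92e-14) day 3 against day 1 and 1.36 ± 0.16 (adjusted p = 1.12e-07) day 3 against day 0.

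Gemin8 (chrX:166170454-166190512) encodes a subunit of the SMN complex, which assembles the protein cores of spliceosomal small nuclear RNAs. It had 12.5, 12.9 and 11.7 CPM at day 0, 27.3, 30.7 and 32.2 CPM at day 1 and 14.3, 12.3 and 15.3 CPM at day 3 in siChst7 cells. The siControl values were 10.7, 10.9 and 8.27 CPM at day 0, 29.2, 30.1 and 31.9 CPM at day 1 and 12.9, 14.1 and 13.0 CPM at day 3. Days 0 and 3 overlapped in siChst7 cells, with day 1 above both. There the log2 fold change was 1.35 ± 0.10 (adjusted p = 4.63e-11) day 1 against day 0 and −1.22 ± 0.10 (adjusted p = 4.56e-10) day 3 against day 1. Day 3 against day 0 it was 0.13 ± 0.10 (adjusted p = 0.252), and without replicate 2 of siChst7 day 3 it was 0.24 and passed the test (adjusted p = 0.0214).

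Rbpms2 (chr9:65629356-65660536) encodes an RNA-binding protein of heart and smooth muscle. Its siChst7 values were 29.3, 28.6 and 31.6 CPM at day 0, 76.7, 69.6 and 74.8 CPM at day 1 and 32.4, 36.9 and 33.8 CPM at day 3. The siControl values were 26.0, 24.8 and 26.2 CPM at day 0, 70.3, 66.1 and 64.1 CPM at day 1 and 31.4, 27.4 and 31.8 CPM at day 3. At days 0 and 3 every siChst7 library exceeded every siControl library. In siChst7 cells Rbpms2 rose by a log2 fold change of 1.37 ± 0.06 (adjusted p = 1.08e-14) day 1 against day 0 and changed by −1.20 ± 0.06 (adjusted p = 3.67e-13) day 3 against day 1. Day 3 against day 0 the value was 0.16 ± 0.06 (adjusted p = 0.0236), which did not pass the test without replicate 1 or 2 of siChst7 day 0 or replicate 2 of siChst7 day 3 (adjusted p = 0.079, 0.103 and 0.0666).

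Mlf1 (chr3:67374097-67400000), myeloid leukemia factor 1, is known from a fusion gene in human leukemia and shuttles between nucleus and cytoplasm. It had 8.10, 8.50 and 5.09 CPM at day 0, 85.0, 84.7 and 86.0 CPM at day 1 and 45.1, 34.0 and 53.5 CPM at day 3 in siChst7 cells. In siControl cells it had 10.7, 12.0 and 11.0 CPM at day 0, 98.5, 91.4 and 94.6 CPM at day 1 and 34.2, 29.1 and 32.4 CPM at day 3. The siChst7 day 3 libraries had the largest SD of the groups of Mlf1 (9.75 CPM), and all its siChst7 libraries of days 0 and 1 lay under the siControl ones. Its log2 fold change in siChst7 cells was 3.62 ± 0.15 (adjusted p = 1.93e-15) day 1 against day 0, −1.05 ± 0.13 (adjusted p = 2.67e-07) day 3 against day 1 and 2.57 ± 0.15 (adjusted p = 6.73e-13) day 3 against day 0.

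Murc (chr4:48663514-48673492) encodes cavin-4, which coats caveolae, the small membrane pits, in heart and skeletal muscle. Its siChst7 libraries had 12.0, 11.2 and 9.53 CPM at day 0, 71.5, 78.3 and 70.9 CPM at day 1 and 24.6, 23.6 and 26.6 CPM at day 3. Its siControl libraries had 13.0, 15.1 and 13.4 CPM at day 0, 72.5, 75.4 and 73.0 CPM at day 1 and 27.9, 29.8 and 26.4 CPM at day 3. The siRNAs overlapped at day 1, and day 3 lay between day 0 and day 1 in both series. In siChst7 cells Murc rose by a log2 fold change of 2.81 ± 0.08 (adjusted p = 3.09e-18) day 1 against day 0, changed by −1.67 ± 0.08 (adjusted p = 5.23e-14) day 3 against day 1, and stayed above day 0 (1.15 ± 0.08, adjusted p = 3.09e-11). Unlike Murc, the summed cardiomyocyte markers were highest at day 3.

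Ppm1e (chr11:87226906-87358994) encodes a metal-dependent serine/threonine phosphatase. It had 17.0, 17.3 and 17.5 CPM at day 0, 113, 117 and 118 CPM at day 1 and 63.7, 63.3 and 58.4 CPM at day 3 in siChst7 cells. In siControl cells it had 13.6, 15.3 and 14.1 CPM at day 0, 158, 163 and 166 CPM at day 1 and 79.8, 73.9 and 73.7 CPM at day 3. The siChst7 libraries started above the siControl ones and lay under them at days 1 and 3. Ppm1e changed in siChst7 cells by log2 fold changes of 2.81 ± 0.05 (adjusted p = 1.25e-21) day 1 against day 0, −1.01 ± 0.05 (adjusted p = 8.33e-14) day 3 against day 1 and 1.80 ± 0.05 (adjusted p = 2.4e-18) day 3 against day 0.

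Tbc1d23 (chr16:57168862-57231528) encodes a protein that captures vesicles from endosomes at the trans-Golgi. Its siChst7 values were 43.3, 44.4 and 44.8 CPM at day 0, 163, 169.5 and 176 CPM at day 1 and 95.3, 91.7 and 93.5 CPM at day 3. The siControl values were 41.4, 42.0 and 43.2 CPM at day 0, 181, 188 and 188 CPM at day 1 and 86.0, 88.2 and 91.9 CPM at day 3. Replicates of Tbc1d23 were close together in all 6 groups. Its log2 fold changes in siChst7 cells were 2.00 ± 0.05 (adjusted p = 5.24e-20) day 1 against day 0, −0.96 ± 0.04 (adjusted p = 5.54e-14) day 3 against day 1 and 1.04 ± 0.05 (adjusted p = 3.98e-15) day 3 against day 0.

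Rnf24 (chr2:131298488-131352892) encodes a membrane protein with a RING finger, a domain of many ubiquitin ligases. It had 22.4, 21.3 and 24.2 CPM at day 0, 78.3, 80.6 and 84.4 CPM at day 1 and 28.2, 32.5 and 29.0 CPM at day 3 in siChst7 cells. The siControl values were 19.4, 18.4 and 20.6 CPM at day 0, 76.1, 80.3 and 81.5 CPM at day 1 and 34.8, 36.4 and 35.5 CPM at day 3. The siRNAs overlapped at day 1, with siChst7 above siControl at day 0 and under it at day 3. In siChst7 cells Rnf24 rose by a log2 fold change of 1.91 ± 0.06 (adjusted p = 5.74e-18) day 1 against day 0 and changed by −1.54 ± 0.06 (adjusted p = 1.26e-15) day 3 against day 1, which left it above day 0 (0.36 ± 0.06, adjusted p = 8.68e-06). Its exons share 1125 of 6801 annotated bases (16.5%) with Pank2 on the opposite strand, and since the strand setting of the counting is not given in the sources used here, reads there cannot be told apart. Pank2 itself moved the other way in siChst7 cells, by −0.44 day 1 against day 0 and 0.36 day 3 against day 1. Exonic bases shared with opposite-strand genes that were not counted were annotated for Penk (14.3%), Ch25h (11.5%), Tbc1d23 (6.78%) and Tbxas1 (1.58%). The same limit holds for these genes.

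Susd5 (chr9:114057354-114098733), a membrane protein with sushi and link domains of little known function, was the one gene nearly silent at day 0. In siChst7 cells it had 0, 6 and 6 counts at day 0, 22.7, 22.7 and 24.9 CPM at day 1 and 12.0, 12.1 and 10.5 CPM at day 3. In siControl cells it had 1, 0 and 2 counts at day 0, 23.0, 19.5 and 22.5 CPM at day 1 and 11.9, 9.61 and 10.3 CPM at day 3. A library with no count allows up to 3 counts, by counting error alone. The siControl day 1 level, from 2292 counts, was 995 times that of day 0, with a 95% counting interval of 340 to 4830. In siChst7 cells the fitted log2 fold change was 8.07 ± 0.23 (adjusted p = 2.29e-18) day 1 against day 0, −1.12 ± 0.12 (adjusted p = 2.35e-08) day 3 against day 1 and 6.95 ± 0.25 (adjusted p = 1.17e-16) day 3 against day 0.

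**Figure D3:**
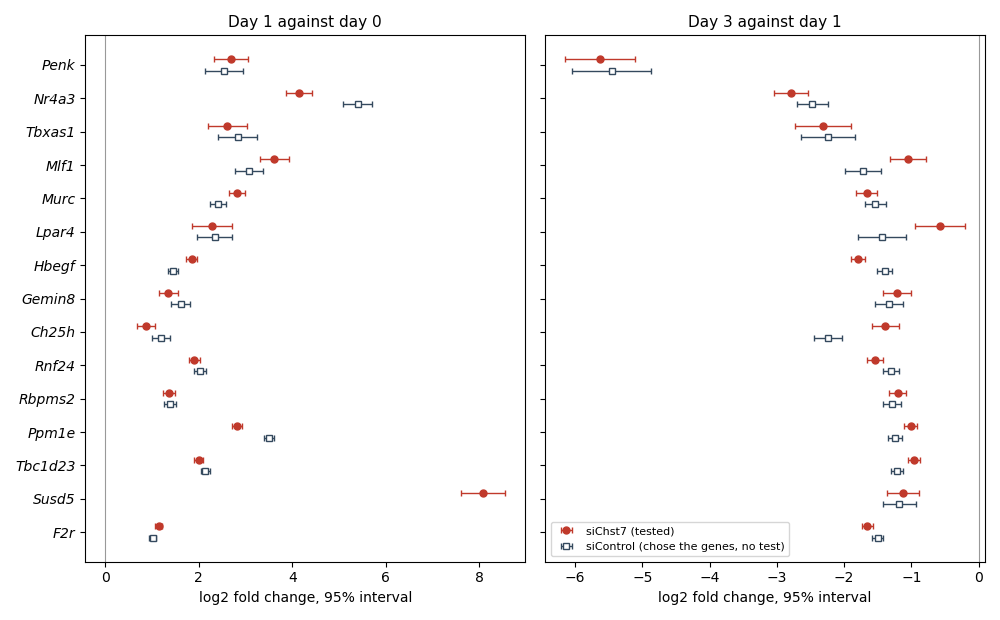
Log2 fold change of each of the 15 genes, day 1 against day 0 (left) and day 3 against day 1 (right), in siChst7 cells (red, tested) and siControl cells (blue, which chose the genes). The 95% intervals come from the model fitted to all 18 libraries, 3 per group. In siChst7 cells every interval lies above 0 on the left and below 0 on the right, nearest to 0 for Lpar4 at −0.58; the siControl value of Susd5 on the left, which rests on 3 counts at day 0, is not drawn.

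Applied to the siChst7 libraries, the full rule held for 10 of the 15 genes and for 36 of 13802 tested genes (0.261%). The 10 are 66.7% of the 15 and 27.8% of the 36. The other 5 kept the direction of both changes and missed a threshold. Ch25h reached 1.76 times its day 0 mean. Day 1 over day 3, Tbc1d23 reached 1.81 times, Ppm1e 1.88 times, Mlf1 1.93 times and Lpar4 1.40 times, and the Lpar4 day 1 mean of 2.93 CPM was also under 5 CPM. The 26 genes that met the rule in siChst7 cells alone had ratios of the day 1 mean over the larger of the other means of 1.30 to 2.00 in siControl cells, with a median of 1.56. Mef2c, Gata4 and Tbx5, which the cells carry as inducible copies, were among the 26. In siControl cells the margin of the rule was thin for several genes: the day 1 mean over the larger of the other means was 2.094 for Tbc1d23, 2.044 for Susd5 and 2.019 for F2r just inside, and 1.997 for Epb41, 1.996 for Pcdh17 and 1.977 for Spin4 just outside.

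The siControl values of each day chose the genes, so the differences between the siRNAs are given as a description with no test. In CPM from unscaled totals, the siChst7 and siControl libraries at day 0 did not overlap in 12 of the 15 genes, against 44.9% of all tested genes. At day 1 they did not overlap in 9 (39.3% of tested genes), and at day 3 in 7 (49.0%). These counts depend on the scaling: TMM factors at day 0 were 1.004 to 1.008 in siChst7 libraries and 0.961 to 0.971 in siControl libraries. Tbc1d23 was among the 12, with a TMM-scaled log2 fold change of 0.01 ± 0.05 at day 0. At day 1 Penk and Hbegf were higher in siChst7 cells, and Nr4a3, Mlf1, Lpar4, Ch25h, Ppm1e, Tbc1d23 and F2r were lower. Most of these differences were small beside the changes between days: at day 1 the log2 fold change of siChst7 over siControl passed 0.5 in either direction in 2 genes, Penk (0.95 ± 0.16) and Lpar4 (−0.87 ± 0.16). Ppm1e followed at −0.48 ± 0.05, Nr4a3 at −0.34 ± 0.10 and Ch25h at −0.32 ± 0.09 (log2 fold change ± SE, n = 3 each). Penk had 14.4 ± 2.19 CPM in siChst7 cells at day 1 and 7.49 ± 0.895 CPM in siControl cells (SD, n = 3 each), and was also higher at day 0 (0.79 ± 0.22), before doxycycline. Lpar4 was likewise already lower at day 0 (−0.81 ± 0.23), as was Mlf1 (−0.69 ± 0.16), which was at −0.15 ± 0.12 at day 1 and higher at day 3 (0.52 ± 0.13). Nr4a3 was higher at day 0 (0.91 ± 0.21) and lower at day 3 (−0.65 ± 0.13). Whether the changes between days differed between the siRNAs was not tested. The medians over the 15 were 0.10 at day 0, −0.09 at day 1 and −0.01 at day 3, against 0.01 for all tested genes on each day.

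**Figure D4:**
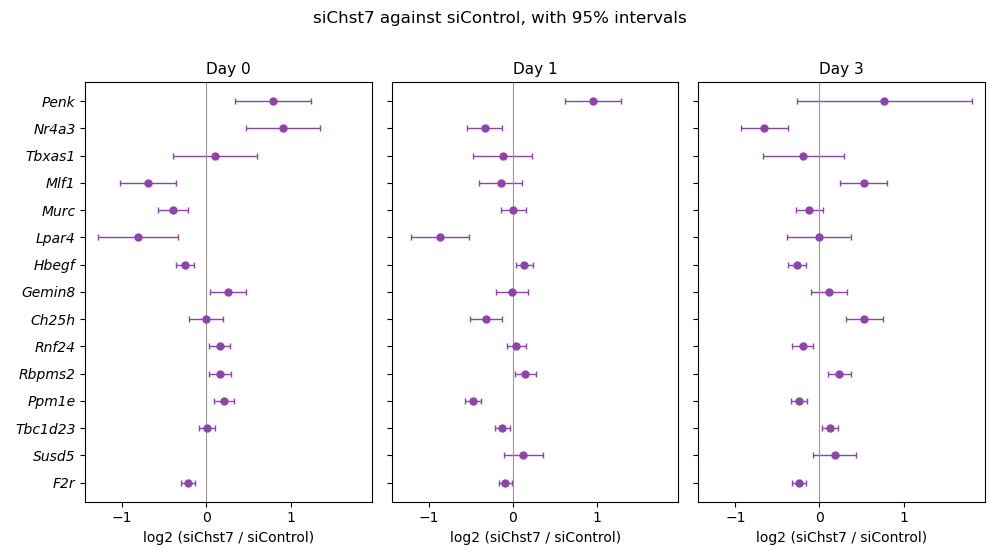
Log2 fold change of siChst7 over siControl for each of the 15 genes at days 0, 1 and 3, with 95% intervals from the model fitted to all 18 libraries, 3 per group. At day 1 Penk stands highest at 0.95 and Lpar4 lowest at −0.87; Susd5 at day 0, with 12 counts in siChst7 cells and 3 in siControl cells, is not drawn.

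Other immediate early genes moved in both directions at day 1 in siChst7 cells, and most of them fell by day 3. A list of 41 immediate early and AP-1 genes had 40 tested, and of the 38 besides Nr4a3 and Hbegf 15 rose and 16 fell day 1 against day 0 (29.5% of all tested genes rose and 30.5% fell), with a median log2 fold change of −0.07. Among them Dusp1, a phosphatase of MAP kinases, rose (1.40 ± 0.07, adjusted p = 2.18e-14), and Jun (−2.05 ± 0.05, adjusted p = 3.1e-20), Ier3 (−1.95 ± 0.06, adjusted p = 1.48e-17) and the AP-1 subunit gene Fosl1 (−2.16 ± 0.08, adjusted p = 3.62e-16) fell. Day 3 against day 1, 7 of the 38 rose and 27 fell (31.7% and 33.5% of all tested genes), and the median log2 fold change was −0.53. The zinc finger gene Egr2 had 6.60, 16.0 and 2.53 CPM at days 0, 1 and 3 in siChst7 cells and 6.43, 9.29 and 2.79 CPM in siControl cells. Its log2 fold change in siChst7 cells was 1.34 ± 0.09 day 1 against day 0 (adjusted p = 3.01e-11) and −2.78 ± 0.11 day 3 against day 1 (adjusted p = 4.8e-15). Dusp6 rose by 0.31 ± 0.05 day 1 against day 0 and fell by 1.10 on the log2 scale day 3 against day 1. Cyr61 rose by 0.42 ± 0.04 and fell by 0.76 in the same comparisons, and Egr1 fell in both, by 0.20 and 1.25. The Cyr61 means were 713, 913 and 581 CPM at days 0, 1 and 3 in siChst7 cells. In siControl cells they were 1292, 912 and 569 CPM, so Cyr61 did not rise at day 1 there. In the list of FGF, EGF and VEGF ligands and receptors, 34 of 39 were tested, and of the 33 besides Hbegf 14 rose and 16 fell at day 1 (29.5% and 30.5% of all tested genes), and 12 rose and 14 fell day 3 against day 1 (31.7% and 33.5%). The fibroblast growth factor gene Fgf18 rose by 5.76 ± 0.10 at day 1 (adjusted p = 9.89e-22) and fell by 1.07 on the log2 scale day 3 against day 1. Pdgfc rose by 2.69 ± 0.06 (adjusted p = 8.76e-20) and fell by 0.71. Other genes of the list moved differently. Pdgfb rose at day 1 (3.54 ± 0.10, adjusted p = 2.49e-18) and rose further day 3 against day 1 (1.19 ± 0.07, adjusted p = 7.65e-12). Fgf10 fell in both comparisons (−1.50 ± 0.06 and −0.72 ± 0.06).

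Relatives of the 15 genes were gathered into small families after the genes were known, 61 genes with 42 tested. Of the 33 that are not among the 15, 10 rose and 15 fell in siChst7 cells day 1 against day 0 (29.5% and 30.5% of all tested genes), and 14 rose and 16 fell day 3 against day 1 (31.7% and 33.5%). Of the other NR4A receptors, Nr4a2 fell at day 1 (log2 fold change −0.37 ± 0.12, adjusted p = 0.0116), and Nr4a1 did not pass the test (0.05 ± 0.08, adjusted p = 0.621). Other receptors for lysophosphatidic acid moved against Lpar4, with Lpar1 at −1.83 ± 0.07 and Lpar2 at −1.24 ± 0.08 at day 1, and both rose by day 3. Lpar6 did not pass the test at day 1 (−0.15 ± 0.12, adjusted p = 0.292). F2r was the one protease-activated receptor with enough counts to be tested. Around Tbxas1, the cyclooxygenase gene Ptgs1, which makes its substrate, rose (0.34 ± 0.03) and fell again (−1.08 ± 0.04), whereas Ptgs2 (−1.01 ± 0.06) and Ptges (−2.72 ± 0.10) fell at day 1. Among caveolar genes, Ptrf (cavin-1) rose at day 1 (1.71 ± 0.05) and fell by day 3 (−0.70 ± 0.05), and Prkcdbp (cavin-3, 1.61 ± 0.06) and Cav1 (0.82 ± 0.08) rose, whereas Sdpr (cavin-2) fell (−1.25 ± 0.05). In the SMN complex 2 of the 8 other members, Gemin7 (0.65 ± 0.05) and Strap (0.42 ± 0.04), rose with Gemin8 and 4 fell. Of 8 other EGF receptor ligands and receptors, 4 rose, Areg by 1.55 ± 0.31 from a level under 1 CPM, and 3 fell, Egfr itself by 0.64 on the log2 scale.

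The 15 genes lay on 11 chromosomes. Penk, Nr4a3 and Murc were on chromosome 4, where Nr4a3 and Murc were 577066 bases apart with 6 tested genes between them. Of the 30 tested genes next to the 15, 12 rose and 7 fell at day 1 in siChst7 cells (29.5% and 30.5% of all tested genes), with a median log2 fold change of 0.16. Day 3 against day 1, 12 fell and 8 rose (33.5% and 31.7%), with a median of −0.05. Tmeff1, 382 bases from Murc, changed by 0.45 ± 0.06 and then −0.44 ± 0.06, a smaller change in the same directions as Murc (2.81 and −1.67). Hipk2, 0 bases from Tbxas1, moved with it more strongly (1.06 ± 0.05 and −0.87 ± 0.05). So did Lipa with Ch25h (1.62 ± 0.05 and −0.44 ± 0.05) and Oaz2 with Rbpms2 (1.03 ± 0.06 and −0.22 ± 0.06) at day 1. Pank2 moved against Rnf24 (−0.44 ± 0.05 and 0.36 ± 0.05). Deposited gene lengths were 1161 to 6315 bases (median 2375), against a median of 2882 for all tested genes. In siChst7 cells the log2 fold change day 3 against day 1 went with gene length over the 13802 tested genes (rank correlation −0.223, and −0.042 in siControl cells), all from the same libraries. The medians of the length deciles that hold the 15 genes were between −0.10 and 0.17. All 15 genes, at −0.58 or lower, necessarily lay below them, which says nothing about length.

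AU-rich words were counted in the longest annotated 3′ UTR of each of the 15 genes and of 12941 tested genes. Which 3′ UTR these cells used was not examined. The word TATTTAT stood in 10 of the 15, against 29.8% of tested genes, and at least 3 copies of ATTTA in 9 of the 15, against 38.8%. Lpar4 held 17 copies of ATTTA in 2576 bases, Rnf24, Ppm1e and F2r held 7 each, and Nr4a3 and Tbc1d23 held 5 each. Penk, the gene with the steepest fall by day 3, and Mlf1 held none, in 3′ UTRs of 308 and 292 bases. Over the 15 genes together ATTTA occurred 2.45 times per kilobase, against 1.69 times over all tested genes, and the median 3′ UTR length was 1456 bases, against 1342 bases. Longer 3′ UTRs hold more of both words by length alone, so the share of genes with a word is not corrected for length. The relation of these words to the fall was not tested.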

How the data were processed

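Messenger RNA of 18 libraries was sequenced after poly-A selection, per the labels' protocols. The authors deposited a table of raw read counts, 1 whole number for each gene and library, with gene lengths. Per the submitters' processing notes, HISAT2, Subread, featureCounts and DESeq2 were used with the mouse build mm10. Their versions, annotation, strandedness and handling of multi-mapping reads are not given in the sources used, so reads of near-identical or overlapping genes may be split in unknown ways. Total counts were 30590742 to 50021142 per library, and counting intervals and limits cover counting error only.

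The 15 genes and all gene lists were chosen with earlier results of these data known, and the small families were drawn up after the 15 were known. All 15 were named. Of other listed genes, up to 4 called ones with the smallest p per comparison were named, and relatives in the families were chosen for naming after their values were seen. The rule was applied to CPM from unscaled totals, and overlap between libraries was counted on the same values.

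Counts were tested with edgeR 4.0.16 (R 4.3.3). Genes were filtered with filterByExpr, which left 13802, among them all 15, which also passed with the day 1 libraries left out. Libraries were scaled with TMM, and 6 groups were fitted in 1 quasi-likelihood model with no covariate and 12 residual degrees of freedom (common dispersion 0.00331, a biological coefficient of variation of 5.75%). Tests were two-sided, with Benjamini-Hochberg adjustment over all tested genes and a threshold of 0.05. Values after ± are standard errors of log2 fold changes from this model, whose spread is shared by all groups, unless SD is named. The siControl values chose the genes, so only siChst7 days were tested. The labels call replicates biological without saying how they were kept apart, so p-values measure the spread between these samples, which may be technical. Alternatives were other scalings and filters, DESeq2 1.42.0, a replicate block, only the 9 siChst7 libraries, other thresholds of the rule and leaving out libraries. Coordinates, promoters and 3′ UTRs came from RefSeq and GENCODE annotation of GRCm38 (the same assembly as mm10), matched by symbol for all 15 genes. Coordinates are 1-based.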

Additional observations from a re-analysis of the deposited data

How the results depend on the processing

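The number of genes that meet the rule in siControl cells depends on its settings: 15 as reported, 29 with CPM from TMM-scaled totals, 97 with 1.5-fold and 3 with 3-fold thresholds, and 26 with a day 1 mean of at least 1 CPM. Leaving out 1 siControl library gave 15 to 17 genes, and Susd5 was missing without replicate 1 of day 1 or replicate 2 of day 3. The number of the 15 that meet the rule in siChst7 cells was 10, with 12 from TMM-scaled totals, 14 with 1.5-fold thresholds and 4 with 3-fold thresholds; leaving out 1 siChst7 library gave 9 to 10. The counts of the 15 higher at day 1 (15) and lower at day 3 than at day 1 (15) were the same with DESeq2, other scalings and filters, only the 9 siChst7 libraries and without the libraries that stand apart, an alternative added after the data were seen. Leaving out 1 library gave 15 and 14 to 15. Over the tests of single genes, 803 values kept direction and call, 4 lost the call, 1 gained it and 2 changed sign. The sign changes were those of the uncalled Hbegf change day 3 against day 0 (0.05), which was −0.000225 to 0.0849 when 1 library was left out, the lowest without replicate 1 of siChst7 day 3, and −0.0329 without the libraries that stand apart. The causes were not tested. With the replicate block the counts were also 15, 15 and, day 3 against day 0, 9 higher and 3 lower. Same-numbered siChst7 libraries of different days did not deviate together over the tested genes, with correlations of −0.0656 to 0.0521. The main fit did not pair them, and the labels do not say whether they shared a culture. Depth limits the lowest values: Penk at day 3 and Susd5 at day 0 rest on few counts.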
